A study of Mus musculus with 653 samples.

Results

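The genes described here encode the proteins of the cytosolic ribosome. They were taken from the count table by symbol (Rpl or Rps, followed by a number, by a or by p0 to p2, with the kinase genes Rps6k left out) and kept where at least 10% of the cells had a read. The rule used only the symbol and this minimum, no difference between groups. Of 93 genes with such a symbol, 78 passed, out of 54195 genes listed and 11947 genes that passed the same minimum. The 78 comprise 45 genes with symbols of the large subunit (Rpl) and 33 with symbols of the small subunit (Rps, among them Rps19bp1, which encodes no ribosomal protein) and lie on 18 chromosomes.

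The ribosome joins a small subunit, which reads the messenger RNA, to a large subunit, which forms the peptide bond, and each holds ribosomal RNA and a set of mostly single-copy proteins. Messenger RNAs of these proteins typically begin with a C followed by a run of C and T bases, and their translation is set by growth signals through mTOR and Larp1. The genome also carries many processed pseudogenes of these genes. In the foetal liver, hepatoblasts, mesenchyme and a large number of dividing erythroid cells lie side by side, and ribosomal protein mutations are known above all for anaemia.

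The cells came from embryos of Lgr5-EGFP-IRES-creERT2 males, kept on a C57BL/6 background, and MF1 females, so every group carries the same cross. Livers of E10.5 and E13.5 (embryonic day) were digested, and single cells were sorted either as Liv2+/CD31-/CD45- cells (bulk) or as the Lgr5-GFP+ cells among them, in which GFP is expressed from the Lgr5 locus. After the authors' quality control 653 cells remained, of which E10.5 bulk made up 31.1%, E13.5 bulk 24.3%, E10.5 Lgr5-GFP+ 32.3% and E13.5 Lgr5-GFP+ 12.3% (80 cells). Full-length Smart-seq2 libraries without molecular identifiers were sequenced as 50-base single reads. The labels name no embryo or litter, so each group counts as 1 sample, and no test or p-value is given. Instead, each difference was set against its range over the 5 library pools named in the labels, each of which holds cells of every group. Whether a pool stands for an animal, a sort day or only a library preparation is not given in the labels.

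All cells were labelled as liver hepatoblasts, but markers of other cell types were abundant. Cells were therefore also grouped by reads of 1 marker, more than 10 reads of Afp (a hepatoblast secretory protein), of Klf1 (an erythroid transcription factor) or of Pdgfra (a mesenchymal growth factor receptor), which gave 61 Afp cells, 160 Klf1 cells and 150 Pdgfra cells. A further 272 cells passed for none and 10 for more than 1. These are ranges of a read count rather than cell types. Few cells lay just above the limit, with 0, 2 and 10 cells at 11 to 20 reads of Afp, Klf1 and Pdgfra, whereas 234, 374 and 294 cells had any read of them. The fixed marker lists followed the grouping, in part by construction, since each list named next holds the gene that set its group. The 12 hepatoblast genes summed to 19777 RPM (reads of a gene per 1000000 reads on all genes) in Afp cells, against 9.33 in Klf1 cells and 311 in Pdgfra cells, with Trf listed at 0. The 14 erythroid genes summed to 13374 RPM in Klf1 cells and at most 145.6 RPM in the others, and the 10 mesenchymal genes to 5396 RPM in Pdgfra cells and at most 336 RPM in the other two. Of these sums, Afp itself gave 2227 RPM in Afp cells, Klf1 1418 RPM in Klf1 cells and Pdgfra 335 RPM in Pdgfra cells. The cells that passed for no marker were mixed, with 2429.9 RPM of mesenchymal and 2336 RPM of erythroid genes. Klf1 cells made up 15.8% of E10.5 bulk cells and 0 of the E10.5 Lgr5-GFP+ cells (95% exact binomial interval 0 to 1.73%). At E13.5 they made up 78.6% of bulk cells (interval 71.4 to 84.7%) and 3.75% of Lgr5-GFP+ cells. Afp cells made up 25.1% of E10.5 Lgr5-GFP+ cells, 2.96% of E10.5 bulk cells and 0 of the E13.5 bulk cells (interval 0 to 2.29%). These intervals cover only the counting of cells, which are not independent draws of a condition. Cells had 463347 to 2279700 reads on genes (median 1192740), and no 2 cells had identical counts.

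Because the messenger RNAs of this family are known for the way they start, the 30 bases around the annotated start of the longest-known examples and of genes that stand out in the results are shown first. RefSeq start windows (GRCm38.p6) were matched for 58 of the 78 genes by symbol. Each sequence runs 5′ to 3′ on the gene's strand, from 15 bases before the first transcribed base, and capitals mark the unbroken run of C and T from that base where it begins with C and holds at least 5 bases.
Rplp2, chr7:141447636-141447665, plus strand: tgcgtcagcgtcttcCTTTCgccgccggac
Rps6, chr4:86857353-86857382, minus strand: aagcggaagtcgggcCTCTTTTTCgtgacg
Rps27, chr3:90213634-90213663, minus strand: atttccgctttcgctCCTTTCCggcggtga
Rpl38, chr11:114668565-114668594, plus strand: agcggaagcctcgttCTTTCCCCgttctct
Rps10, chr17:27635230-27635259, minus strand: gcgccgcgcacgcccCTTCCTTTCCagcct
Rplp0, chr5:115559452-115559481, plus strand: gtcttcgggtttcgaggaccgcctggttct
Rps27l, chr9:66946071-66946100, plus strand: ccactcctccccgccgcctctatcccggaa
Rps12, chr10:23787195-23787224, minus strand: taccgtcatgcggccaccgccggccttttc
The first 5 begin with such a run at the annotated base, and the last 3 do not, although each of these holds C and T runs at other positions of the window.

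Over the matched genes, 11 of 58 (18.97%) had a C followed by 4 bases that are C or T at the annotated start, against 3.01% of the 27025 genes with a window. The same pattern began within 10 bases of the start in 34 of 58 (58.6%), against 34.4% of all genes. In the whole window of 250 bases before and 50 bases from the start, ACTTCCG, the core of the Ets family motif, was found on either strand in 21 genes (36.2%, against 7.204% of all genes). GGGCGG, the Sp1 motif, was found in 36 (62.1%, against 38.2%), AAGATGGC, the Yy1 motif, in 4 (6.90%, against 3.19%) and CACGTG, the Myc motif, in 6 (10.3%, against 8.09%). TATAAA was found in 7 (12.1%, against 15.7%). These counts describe letters in the windows and say nothing of binding.

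Reads on the 78 genes made up 2.13% of all reads on genes, and this share differed between the sorted groups. It was 2.97% in bulk cells of E13.5 and 1.92% in those of E10.5. Among Lgr5-GFP+ cells it was 1.73% at E13.5 and 1.92% at E10.5. The share was thus highest in the E13.5 bulk cells, 1.55-fold that of the E10.5 bulk cells. Counting error alone was small, as in the interval 2.971 to 2.976% in E13.5 bulk cells (95%, exact binomial, for counting error only, since amplified reads are not independent molecules). Single cells spread much more widely, from 0.784 to 3.86% (median 1.81) in E10.5 bulk, from 0.605 to 3.51% (median 1.88) in E10.5 Lgr5-GFP+, from 0.727 to 4.81% (median 2.92) in E13.5 bulk and from 0.505 to 4.05% (median 1.598) in E13.5 Lgr5-GFP+ cells.

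The share differed between pools as well. Over all cells it was 1.94, 2.52, 1.79, 1.93 and 2.49% in pools 1 to 5. In pools 1 to 5 the E13.5 bulk cells had 2.78, 3.40, 2.595, 2.71 and 3.36% and the E10.5 bulk cells 1.67, 2.04, 1.72, 1.87 and 2.32%, so that E13.5 bulk was higher in 5 of 5 pools and the groups did not overlap. The log2 ratio was 0.63, with a range over pools of 0.53 to 0.74. The E13.5 Lgr5-GFP+ cells, with 1.88, 2.27, 1.198, 1.27 and 2.03%, lay below the E13.5 bulk cells in every pool (log2 ratio -0.78, range -1.11 to -0.56). Against the E10.5 Lgr5-GFP+ cells (1.61, 2.41, 1.64, 1.64 and 2.26%), they were higher in pool 1 and lower in the other pools (log2 ratio -0.15, range -0.45 to 0.22). The E10.5 sorts differed by less than their spread over pools (log2 ratio 0.00, range -0.19 to 0.24, higher in Lgr5-GFP+ cells in 1 of 5 pools).

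**Figure D1:**
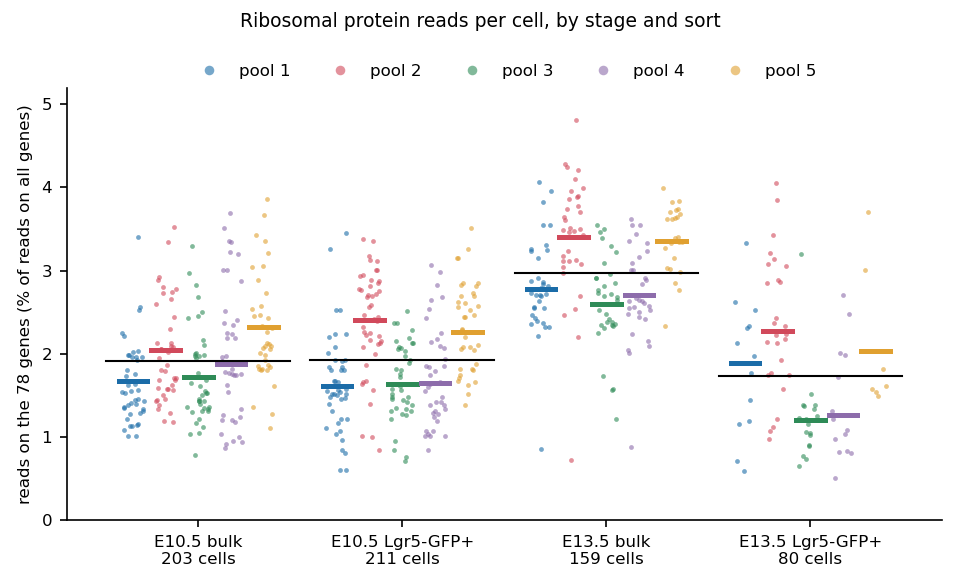
Share of reads on the 78 ribosomal protein genes (y axis, % of reads on all genes) in each cell of the 4 sorted groups, coloured by library pool, with coloured bars at the share of each pool's summed reads and black lines at that of the group. The E13.5 bulk cells sit highest, at 2.97% of their summed reads, and the cells of every group spread widely around their pools.

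Sorted by marker reads, the share was highest in Klf1 cells (3.01%), lower in Afp cells (2.41%) and lowest in Pdgfra cells (1.55%), with 1.94% in cells that passed for no marker. In pools 1 to 5, Klf1 cells had 2.80, 3.50, 2.73, 2.83 and 3.37%, and Pdgfra cells had 1.39, 1.68, 1.39, 1.499 and 1.94%. Afp cells had 2.596, 1.97, 2.43 and 2.59% in pools 2 to 5, and pool 1 had fewer than 5 such cells. The order was the same in every pool with a value, and the pools of Klf1 and Pdgfra cells did not overlap. Klf1 cells were 1.94-fold above Pdgfra cells (log2 ratio 0.95, range 0.80 to 1.06), Afp cells 1.55-fold above Pdgfra cells (0.64, range 0.42 to 0.70) and Klf1 cells 1.25-fold above Afp cells (0.32, range 0.22 to 0.47).

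The difference between stages in bulk cells was smaller within Klf1 cells. Of the 160 Klf1 cells 32 were of E10.5, with a share of 2.94%, and the others of E13.5, with 3.03%, a log2 ratio of 0.04, and the ratios of the 3 pools with at least 5 cells in both (-0.06 to 0.02) lay on both sides of 0. This ratio changed with the choice of cells, to 0.47 where any read of 1 marker was enough, 0.19 without pools 3, 4 and 5, 0.16 with cells of more than 1 marker kept and -0.020 with pools weighted alike. Within the sort, the E10.5 bulk Klf1 cells had 2.94% and the E13.5 bulk Klf1 cells 3.04%. Among bulk cells without a marker the share was 1.88% in the 84 cells of E10.5 and 2.79% in the 32 cells of E13.5. Of these 32 cells 17 were of pool 2, and only 2 pools had at least 5 such cells of both stages. There the E10.5 and E13.5 shares were 1.96 and 3.19% in pool 2, but 1.75 and 1.99% in pool 3. The summed erythroid markers were highest in the group with the highest share, at 14759 RPM in E13.5 bulk cells, but did not follow it among the other groups. They came to 2365 RPM in E13.5 Lgr5-GFP+ cells, where the share was lowest, and to 1547 and 139.4 RPM in E10.5 bulk and Lgr5-GFP+ cells, where it was the same. How far the mix of cells set each group's share was not tested. Of the E13.5 Lgr5-GFP+ cells 83.8% passed for no marker. Mesenchymal markers had the largest sum in this group, at 4389.6 RPM, against at most 2949.35 RPM in the other groups. Endothelial markers summed to 1937 RPM and megakaryocyte markers to 2181 RPM, against at most 101.7 and 746 RPM in the other groups. Leukocyte markers were also highest in the E13.5 Lgr5-GFP+ cells. Pdgfra cells had nearly the same share in both E10.5 sorts, 1.54% in 76 bulk cells and 1.58% in 66 Lgr5-GFP+ cells. Of the 150 Pdgfra cells 8 were of E13.5, with 1.35% against 1.56% in the others, a log2 ratio of -0.21 that no pool could check and that turned to 0.54 with TMM scaling (effective library sizes that put most genes at no change).

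**Figure D2:**
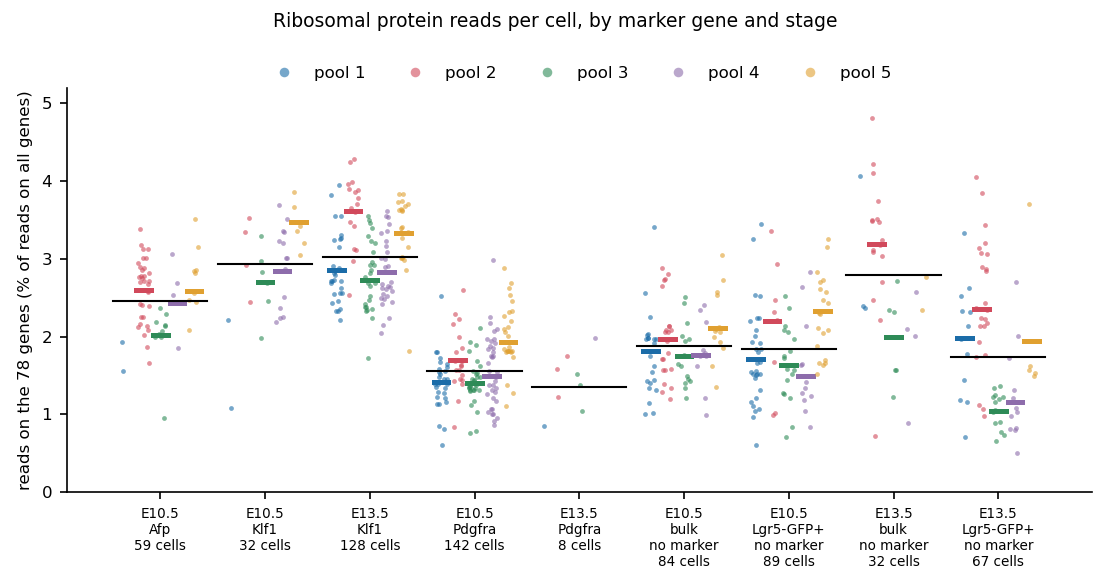
Share of reads on the 78 ribosomal protein genes (y axis, % of reads on all genes) in single cells grouped by reads of Afp, Klf1 and Pdgfra, with black lines at the share of the summed reads and coloured bars at that of each library pool with at least 5 cells. Klf1 cells lie at 3.01%, Afp cells at 2.41% and Pdgfra cells at 1.55%, in the same order in every pool.

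The genes with Rpl symbols took slightly fewer reads than those with Rps symbols. The ratio of Rpl to Rps reads was 0.916 in E10.5 bulk, 0.924 in E10.5 Lgr5-GFP+, 0.995 in E13.5 bulk and 0.943 in E13.5 Lgr5-GFP+ cells. It was 1.003 in Klf1 cells, 0.928 in Afp cells and 0.898 in Pdgfra cells. Pools 2 and 4 differed as widely, with 0.880 and 1.004 over all their cells, so the ratio moved as much between pools as between cells of different markers.

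Single genes were read in most cells. The median gene had a read in 96.4% of cells, against 38.7% over all genes tested, and 9 genes had a read in every cell, among them Rps3 and Rpl4. The median level was 116.4 RPM (from 11.3 for Rpl23a to 2048 for Rps3), against 34.99 RPM over all genes tested, and 17.9% of the genes tested lay at or above the median of the 78. Reads were concentrated in a few genes, since the top 5 by reads held 41.2% of the reads on the 78 genes, the top 10 held 57.6% and the lowest 39 held 9.49%.

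Although the proteins are present in the ribosome in about equal numbers, levels per kb of transcript spanned a wide range. Lengths were those of the annotated principal transcript of each gene, the longest where several ranked alike. Some were long, as 2045 bases for Rpl5, 1856 for Rpl21 and 5179 for Rps15a. How far the order of levels depends on this choice was not tested. Among the highest were Rps14, a small subunit protein, at 2110 RPM per kb, Rpl8 (1705), Rpl4 (1315) and Rps27l (1281), a paralogue of Rps27 known as a target of Trp53. The lowest were Rpl5, which binds ribosomal RNA and, when free, Mdm2, at 10.03 RPM per kb, Rpl23a (20.1), Rpl17 (23.05), Rpl21 (26.6) and Rpl12 (27.1). Rpsa, a small subunit protein also known as the laminin receptor, lay beside Rpl12 at 27.1 RPM per kb.

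These levels moved with how much of each transcript is unique. The authors counted reads that align to a single place, and a median of 50.05% of the 50-base stretches of the 78 transcripts (0 to 98.6%) also occurred in another annotated gene. Genes with under 20% of shared stretches had a median of 246 RPM per kb (10 genes) and held 41.5% of the reads on the 78 genes. The 15 genes with 80% or more had a median of 44.9 RPM per kb and held 3.10%. In between, the medians were 268 RPM per kb (19 genes, 20 to 40%), 98.2 (16 genes, 40 to 60%) and 102.7 (18 genes, 60 to 80%). Spearman's rho between level per kb and shared stretches was -0.50 over the 78 genes, and with the number of annotated pseudogenes that share a stretch it was -0.59. The points share the same libraries, and the part of read loss in these levels was not tested. A median of 8 annotated pseudogenes shared a stretch with each gene, with 81 each for Rpl21 and Rpl29 and more for Rpl7a. Reads listed on 300 genes named as ribosomal protein pseudogenes came to 0.887% of the reads on the 78 genes.

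**Figure D3:**
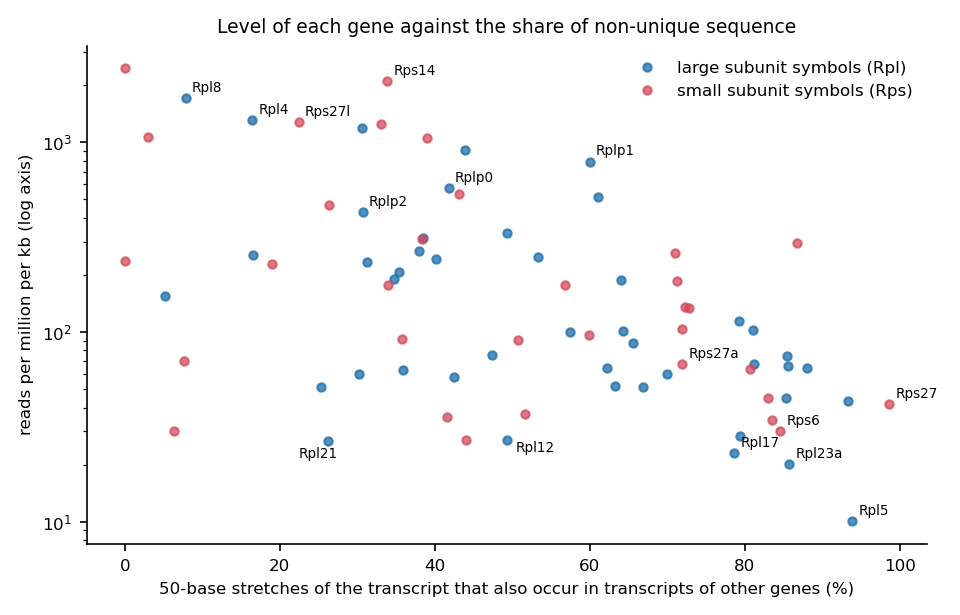
Level of each of the 78 ribosomal protein genes (y axis, RPM per kb over all cells, log axis) against the percent of its 50-base transcript stretches that also occur in another annotated gene (x axis). Genes with 80% or more of shared stretches have a median of 44.9 RPM per kb and those under 20% a median of 246, with Rpl5 at the bottom.

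The 15 genes below the minimum include essential single-copy genes as well as tissue-restricted paralogues. Rpl13, Rpl35 and Rpl35a were listed at 0 in every cell, as were Rps4l, Rpl32l, Rps12l1, Rps27rt, Rps3a3 and Rpl7l1. The shared part of these 9 transcripts ran from 9.19% for Rpl7l1 to all stretches for Rps12l1, with 80.3% for Rpl13, 95.1% for Rpl35 and 51.4% for Rpl35a. Rpl24 had a read in 5.36% of cells. Rps3a2 lay just outside the minimum, with reads in 9.49% of cells, and Rps27 was the lowest inside it, with 39.5%. Whether the limit to unique reads accounts for the zeros was not tested, so that a gene listed at 0 is not shown to be silent.

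In E13.5 bulk against E10.5 bulk cells, most of the 78 genes were higher at E13.5, by less than 2-fold each. Their median log2 ratio was 0.56 (middle 50% from 0.34 to 0.73), against -0.16 over all genes tested, and 73 of 78 lay above 0. Higher in every pool were 56 of 78 (71.8%), where 13.2% of all genes tested were, and 0 were lower in every pool, where 19.3% of all genes were. At 2-fold or more and in the same direction in every pool, 1 gene was higher and 0 were lower, where 6.97% and 16.5% of all genes tested were. TMM scaling raised the log2 ratios of this comparison by 0.15, and those of Klf1 and Afp against Pdgfra cells by 0.15 and 0.20.

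The gene past 2-fold was Rplp0, the stalk base that carries the Rplp1 and Rplp2 dimers and so recruits the translation factors (chr5:115559467-115563727, plus strand). In pools 1 to 5, Rplp0 had 504, 592, 605, 656 and 730 RPM in E10.5 bulk cells and 1797, 1434, 1238, 1211 and 1480 RPM in E13.5 bulk cells. The groups did not overlap, and the log2 ratio was 1.22 (range 0.88 to 1.84). Its partners Rplp1 (622 against 341 RPM, log2 ratio 0.87, range 0.81 to 0.96) and Rplp2 (608 against 336 RPM, 0.85, range 0.65 to 1.002) were also higher in every pool. After Rplp0 came the large subunit genes Rpl37 (280 against 145.8 RPM, 0.94) and Rpl34 (255 against 133.2 RPM, 0.93), the latter with a pool below 0. At the other end were Rpl21 (41.4 against 53.4 RPM, -0.37), Rpl10 (37.1 against 46.8 RPM, -0.34) and Rpl9 (33.3 against 37.05 RPM, -0.15), each with pools on both sides of 0. Rps27a, which is made as a fusion with ubiquitin, had 73.9 against 48.6 RPM (0.60), Rpsa 72.9 against 49.6 RPM (0.55), and Rps6, the phosphorylated target of the S6 kinases, 29.5 against 24.8 RPM (0.25, range -0.60 to 1.10).

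Of the 5 comparisons, that of Klf1 with Pdgfra cells had the largest median. The median log2 ratio of the 78 genes was 0.94, against -0.14 over all genes tested, and 76 of 78 lay above 0. In every pool 69 of 78 (88.5%) were higher, where 16.8% of all genes tested were, and 0 were lower, where 21.4% were. At 2-fold or more, 35 of the 78 were higher in Klf1 cells and 0 lower, where 10.9% and 18.5% of all genes tested were. The 35 hold members of both subunits, Rps19bp1 and all stalk proteins, Rplp0 (1355 against 484 RPM, log2 ratio 1.49), Rplp1 (640 against 239 RPM, 1.42) and Rplp2 (606 against 270 RPM, 1.16).

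Stage and marker were mixed in this comparison, since the Klf1 cells were mostly of E13.5 and the Pdgfra cells mostly of E10.5. Among E10.5 cells alone, the log2 ratio of the share was 0.91 (range 0.84 to 0.94 over 3 pools). There 39 of the 78 were higher and 0 lower, where 12.8% and 26.4% of all genes tested were, and 28 of the 39 were also among the 35. Rplp0 was then no longer past 2-fold (857 against 479 RPM, 0.84, range 0.43 to 0.95), while Rplp1 (653 against 242 RPM, 1.43) and Rplp2 (556 against 275 RPM, 1.02) were.

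Rps12, a small subunit protein (chr10:23785183-23787275, minus strand), had the largest ratio in this comparison. In pools 1 to 5 it had 37.9, 43.1, 38.2, 43.9 and 19.2 RPM in Klf1 cells and 3.8, 16.7, 12.6, 3.3 and 6.2 RPM in Pdgfra cells. The pools did not overlap, and the log2 ratio was 2.20 (range 1.37 to 3.74). Rps12 was read in 45.5% of cells and shares 83.5% of its stretches with other genes. Rpl23a followed (13.97 against 4.34 RPM, 1.68), then Rpl17 (29.2 against 9.67 RPM, 1.59). The lower end held Rpl9 (33.7 against 38.6 RPM, -0.19), Rpl21 (41.9 against 45.5 RPM, -0.12) and Rps6 (30.9 against 26.7 RPM, 0.22), none in the same direction in every pool. Rpsa (80.7 against 33.9 RPM, 1.25) and Rps27a (67.8 against 30.5 RPM, 1.15) passed 2-fold.

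**Figure D4:**
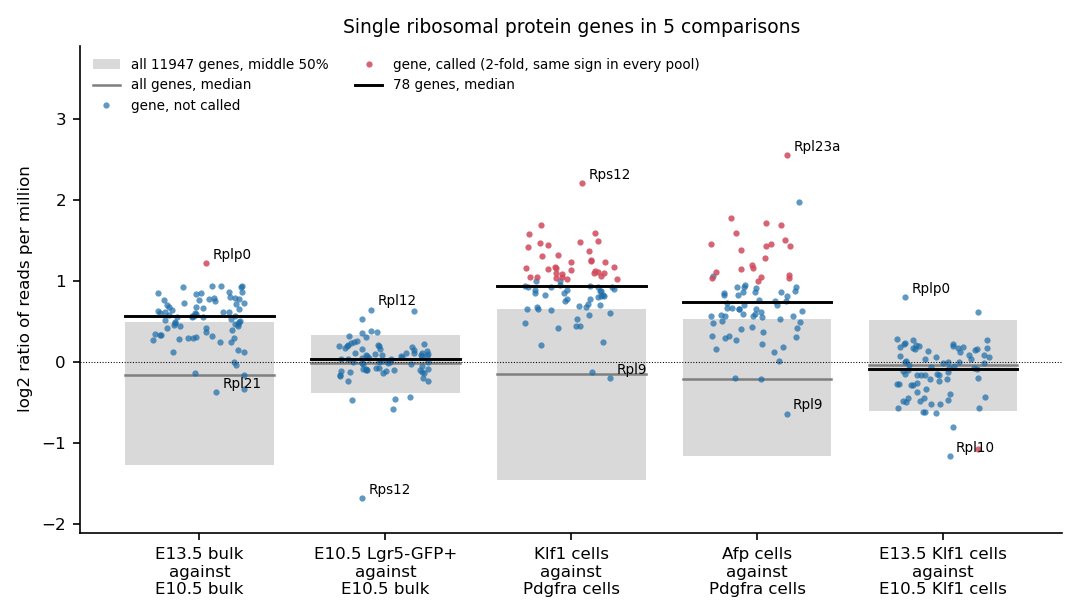
Log2 ratio of RPM of each of the 78 ribosomal protein genes (points) in 5 comparisons (x axis), in red where at least 2-fold in the same direction in every pool and otherwise in blue, with a black line at their median, and grey boxes and lines for the middle 50% and median of all genes tested. The points lie mostly above 0 in the comparisons of E13.5 with E10.5 bulk (median 0.56) and of Klf1 (0.94) and Afp (0.74) with Pdgfra cells.

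Afp cells were compared with the same Pdgfra cells, so the comparisons are not independent of each other. The median log2 ratio of the 78 genes was 0.74, against -0.21 over all genes tested, and 75 of 78 lay above 0. In every pool 60 of 78 (76.9%) were higher, where 14.3% of all genes tested were. At 2-fold or more 21 were higher and 0 lower, where 7.49% and 13.7% of all genes tested were. Among E10.5 cells alone, to which 59 of the 61 Afp cells belong, 23 were higher and 0 lower, where 7.64% and 13.8% of all genes were. The largest ratios were those of Rpl23a (25.5 against 4.34 RPM, 2.55, range 0.26 to 3.16), Rps12 (31.5 against 8.02 RPM, 1.97) and Rpl36al (51.3 against 14.98 RPM, 1.77). Rps12 was lower in Afp than in Pdgfra cells in 1 pool, as 5.1 against 6.2 RPM in pool 5, so it was not counted. Rplp2 was at least 2-fold higher (586 against 270 RPM, 1.12), but Rplp0 was not (644 against 484 RPM, 0.41, range -0.01 to 0.50), nor was Rplp1 (455 against 239 RPM, 0.93). Rpl9 (24.8 against 38.6 RPM, -0.63) and Rps6 (23.04 against 26.7 RPM, -0.21) had the lowest ratios, each with pools on both sides of 0.

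The E10.5 Lgr5-GFP+ cells were compared with the same E10.5 bulk cells, and the 78 genes differed little. The median log2 ratio of Lgr5-GFP+ against bulk cells was 0.04, against -0.01 over all genes tested. At 2-fold or more 0 were higher and 0 lower, where 2.60% and 2.24% of all genes tested were. Rps21 had 138.9, 250, 141.2, 152.8 and 219 RPM in Lgr5-GFP+ cells and 137.95, 141.7, 122.5, 146.4 and 214 RPM in bulk cells in pools 1 to 5, so that the sorts stood apart mainly in pool 2. Rpl12 (37.7 against 24.1 RPM, 0.65), Rpl23a (12.5 against 8.07 RPM, 0.63) and Rpl36 (46.9 against 32.6 RPM, 0.53, range 0.07 to 0.82) had the highest ratios. Rps12 (7.33 against 23.5 RPM, -1.68, range -6.87 to 1.61), Rpl19 (17.003 against 25.4 RPM, -0.58) and Rpl3 (71.2 against 98.1 RPM, -0.46, range -2.85 to -0.09) had the lowest. Rps12 was higher in Lgr5-GFP+ cells in pool 5 (13.6 against 4.4 RPM) and lower in the other pools.

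Between stages of Klf1 cells the 78 genes lay on both sides of 0, with a median log2 ratio of -0.08, against -0.03 over all genes tested. In every pool 14 were higher and 24 lower, where 16.4% and 17.6% of all genes tested were. At 2-fold or more 0 were higher and 1 was lower, where 7.42% and 6.06% of all genes tested were. The gene was Rpl3, a large subunit protein near the peptidyl transferase centre (chr15:80077791-80091868, minus strand), with 139.03 RPM at E13.5 and 291 RPM at E10.5 (log2 ratio -1.07, range -1.57 to -0.55). Rpl3 shares 85.6% of its stretches with other genes and varied by pool, with 5.7 RPM in E10.5 bulk cells of pool 1 against 104.7 to 127.4 RPM in the other pools. Rpl10 (38.8 against 86.3 RPM, -1.15) and Rpl19 (24.4 against 42.6 RPM, -0.80) were the other low genes. Rplp0 went the other way, with 1494 RPM at E13.5 and 857 RPM at E10.5 (0.80, above the range of 0.60 to 0.66 over its pools), although Rplp1 (636 against 653 RPM, -0.04) and Rplp2 (620 against 556 RPM, 0.16) differed little. Rpl34 (273 against 177.999 RPM, 0.61) also had a pooled ratio outside the range of its pools (-0.80 to 0.29), and Rpl23a followed (14.5 against 11.9 RPM, 0.29). In the 8 E13.5 Pdgfra cells, Rpl10 (-4.39) and Rpl28 (-2.80) were among the lowest and Rps29 (3.54), Rps13 (1.54) and Rps19bp1 (0.81) had the highest log2 ratios against E10.5, with no pool to check them.

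Paralogues of these genes are tissue-restricted or stress-related copies that can take the place of the common protein. Levels per kb over all cells favoured the common gene in most pairs, as for Rpl39 (256 RPM per kb) against Rpl39l (0.36), Rpl3 (66.1) against the muscle copy Rpl3l (0.02), Rpl10 (44.7) against the testis copy Rpl10l (0.01) and Rpl22 (155.01) against Rpl22l1 (87.4). Rpl7 (248 RPM per kb) and Rps4x (135.6) stood against Rpl7l1 and Rps4l, which were listed at 0. Rps27 (chr3:90212522-90213651, minus strand) and Rps27l (chr9:66946086-66949516, plus strand) were the exception, with 41.9 and 1281 RPM per kb. Rps27 shares 98.6% of its stretches with other genes and Rps27l 22.4%, and the part of this in the order of the pair was not tested.

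The coding sequences show how far unique reads can tell the copies apart. In the principal transcripts (GENCODE M21, GRCm38) Rps27 and Rps27l both have 255 coding bases, of which 61 differ (76.1% identical), with no identical stretch longer than 11 bases. Rpl36a (chrX:134585654-134588062, plus strand) and Rpl36al (chr12:69182731-69184083, minus strand) both have 321, of which 39 differ (87.9% identical), with none longer than 24 bases. A 50-base read within the coding sequence of either copy therefore meets a base that differs from the other copy. Reads can still be lost to further genes, since Rpl36a shares 85.5% and Rpl36al 63.3% of its stretches with other annotated genes, pseudogenes included. The first 60 coding bases are shown with capitals at the bases that differ within a pair, 18 for the first pair and 11 for the second.
Rps27: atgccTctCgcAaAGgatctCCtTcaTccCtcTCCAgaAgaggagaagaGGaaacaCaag
Rps27l: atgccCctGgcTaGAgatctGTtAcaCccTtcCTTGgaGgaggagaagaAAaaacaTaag
Rpl36a: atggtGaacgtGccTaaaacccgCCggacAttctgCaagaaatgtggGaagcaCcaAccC
Rpl36al: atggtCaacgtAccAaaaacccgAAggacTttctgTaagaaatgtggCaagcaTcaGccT

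The levels of the copies were compared over the same marker cells. Rps27l had 925 RPM in Afp, 766 in Klf1 and 419 in Pdgfra cells, with a log2 ratio of 1.14 for Afp against Pdgfra cells (range 0.81 to 1.39) and 0.87 for Klf1 against Pdgfra cells (range 0.46 to 1.11). Rps27 had 13.6, 12.1 and 10.2 RPM in the same order, but its pools scattered, with log2 ratios from -2.73 to 4.22 over the pools of Klf1 against Pdgfra cells. It was highest in E13.5 Lgr5-GFP+ cells, with 71.4, 54.2, 29.1, 17.4 and 20.9 RPM in pools 1 to 5, against 0.4 to 20.4 RPM over the pools of the other sorted groups. Pools 1, 2, 3 and 5 thus lay above every pool of those groups, pool 5 narrowly and with 7 cells. Against E13.5 bulk cells of the same pool the sign was not the same throughout (log2 ratio 1.96, range -0.23 to 6.91). Rps27 was read in 39.5% of all cells and shares 98.6% of its stretches with other genes. Rpl36al, an intronless copy of Rpl36a, had 51.3 RPM in Afp, 42.2 in Klf1 and 14.98 in Pdgfra cells and was at least 2-fold higher in both Afp and Klf1 cells, while Rpl36a had 47.3, 58.1 and 30.04 RPM and was not. Among E10.5 cells alone, Rpl36a also passed in Klf1 against Pdgfra cells (79.9 against 31.2 RPM, 1.36, range 0.67 to 2.15). It did not pass there in Afp against Pdgfra cells (0.64), while Rpl36al passed in both (1.85 and 1.78). Rpl22 (335, 420 and 226 RPM) and Rpl22l1 (53.5, 63.4 and 36.03 RPM) kept the same order in Afp, Klf1 and Pdgfra cells.

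**Figure D5:**
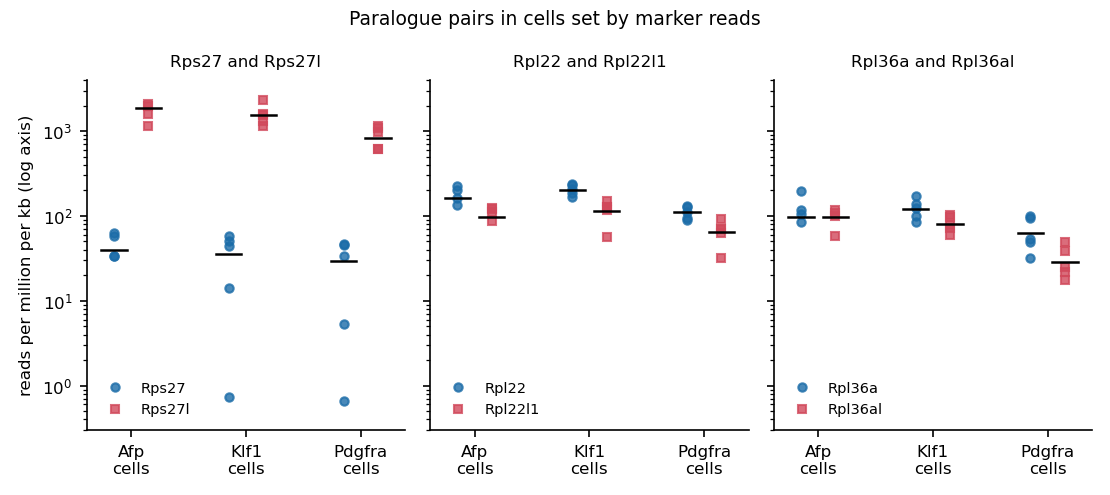
Level of Rps27 and Rps27l, Rpl22 and Rpl22l1, and Rpl36a and Rpl36al (y axis, RPM per kb, log axis) in Afp, Klf1 and Pdgfra cells, with points for library pools of at least 5 such cells and black lines for the summed reads. Rps27l lies above Rps27 in every group and pool, and Rps27 spreads most between pools.

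Rps19bp1 carries a matching symbol but is a regulator that binds Rps19, not a ribosomal protein. It had 266 RPM in Klf1, 235 in Afp and 128.97 in Pdgfra cells, at least 2-fold higher in Klf1 than in Pdgfra cells (log2 ratio 1.05, range 0.14 to 1.62). Among E10.5 cells alone it did not pass (236 against 124.7 RPM, 0.92), with pools on both sides of 0 (-0.24 to 0.71). Of the ribosomal genes whose symbols fall outside the rule, Rack1, a scaffold on the small subunit, had 3280 RPM in Klf1, 2263 in Afp and 1517 in Pdgfra cells and was at least 2-fold higher in Klf1 than in Pdgfra cells (1.11). Fau, which encodes a ubiquitin-like protein fused to Rps30, had 95.2 RPM in Afp, 76.5 in Klf1 and 40.4 in Pdgfra cells and was at least 2-fold higher in Afp than in Pdgfra cells (1.24).

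Other genes of protein synthesis were counted by the same rule. Of the 74 tested entries of the mitochondrial ribosome, Mrps36-ps1 included, 18 (24.3%, against 10.9% of all genes tested) were at least 2-fold higher in Klf1 than in Pdgfra cells. In the other direction 0 passed, where 18.5% of all genes did. The median log2 ratio was 0.82, with Mrps28 at 277 against 70.3 RPM (1.98). In Afp against Pdgfra cells 14 were higher (18.9%, against 7.49% of all genes, median 0.69). In E13.5 against E10.5 bulk cells 7 were (9.46%, near the 6.97% of all genes, median 0.42), again with Mrps28 in the lead (267 against 108.1 RPM, 1.30). Of 49 ribosome biogenesis factors, 27 (55.1%, against 10.9% of all genes) were higher in Klf1 than in Pdgfra cells and 0 lower (against 18.5%, median 1.19). Polr1b, a subunit of RNA polymerase I, had 65.99 against 9.99 RPM (2.72), the nucleolar helicase Ddx21 431 against 74.8 RPM (2.53) and Nhp2, of the H/ACA particle, 1429 against 318 RPM (2.17). In Afp against Pdgfra cells 10 were higher (20.4%, against 7.49% of all genes) and 1 lower (2.04%, against 13.7%), with a median of 0.31 and with Rrp12 (49.9 against 12.3 RPM, 2.02) and Taf1b (6.21 against 43.97 RPM, -2.82) at the ends. Between stages 8 were higher in E13.5 bulk (16.3%, against 6.97% of all genes, median 0.58), led by Ddx21 (395 against 129.1 RPM, 1.61). In Klf1 cells 2 were lower at E13.5 (4.08%, below the 6.06% of all genes), Polr1b (45.3 against 140 RPM, -1.63) and Rrp9 (153.1 against 310 RPM, -1.02), and 24 of 49 (48.98%, against 17.6% of all genes) were lower in every pool at any size.

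The medians of the 32 translation factors were lower than those of the 78 ribosomal protein genes in the comparisons given here. In all, 4 (12.5%, near the 10.9% of all genes) were at least 2-fold higher in Klf1 than in Pdgfra cells (median 0.65), among them Eif3d (319 against 120 RPM, 1.41) and the poly(A)-binding protein Pabpc1 (825 against 409 RPM, 1.01). In Afp against Pdgfra cells (0.20), between the bulk stages (0.39) and between the stages of Klf1 cells (-0.09), 0 passed in either direction. Among all genes tested, 7.49% passed as higher and 13.7% as lower in Afp against Pdgfra cells. These shares were 6.97% and 16.5% between the bulk stages, and 7.42% and 6.06% between the stages of Klf1 cells. Of the 14 regulators, 4 (28.6%) were at least 2-fold higher in Klf1 than in Pdgfra cells and 1 (7.14%) lower, where 10.9% and 18.5% of all genes tested were (median 0.34). Most of this list thus did not pass. Among those that did, Myc, which drives ribosome production, had 308 RPM in Klf1 and 55.9 in Pdgfra cells (2.46), and its relative Mycn 4.51 against 77.5 RPM (-4.10). Larp1, which binds the C and T runs at the starts of these messenger RNAs, was higher in Klf1 cells (147.2 against 43.9 RPM, 1.75). Between the bulk stages 3 regulators were higher at E13.5 and 1 lower, where 6.97% and 16.5% of all genes tested were. Between the stages of Klf1 cells 2 were higher and 0 lower, where 7.42% and 6.06% were. Cdkn1a, a target of Trp53, was higher at E13.5 than at E10.5 in bulk cells (158.1 against 16.5 RPM, 3.26) and in Klf1 cells (84.02 against 10.01 RPM, 3.07). In E10.5 Lgr5-GFP+ against bulk cells, 0 genes of these 4 lists passed in either direction, where 2.60% of all genes tested were higher and 2.24% lower.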

How the data were processed

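Counts of uniquely aligned reads per gene were deposited by the authors as 1 table, unnormalized, after their filters on cells. Per the labels and the methods, STAR 2.6.0c aligned the reads to GRCm38, and featureCounts of Subread 1.6.2 counted them with the Ensembl annotation. All 653 columns were matched to samples by title. All 54195 rows are Ensembl genes and entered the totals, and 54042 of them had a symbol. Reads were summed over the cells of a group and divided by all reads on genes. For single genes 1 read was added to each sum, and a ratio with no read on either side was set to 0. A gene passed when it differed at least 2-fold, in the same direction in every pool with at least 5 cells on both sides, with 3 such pools or more. Cells are not replicates, so no test was run. The rule was checked on simulated counts. Cells were gated as singlets by the authors, and no doublet caller was run. Genes were named by role, by extreme level or ratio, and by paralogue pair, and some genes so named are not reported here. The genes and lists were chosen with earlier results of these data known. Shared stretches of 50 bases were counted among GENCODE M21 transcripts, for the same principal transcript of each gene that gave its length. Tools were Python 3.11.15, numpy 2.4.6, pandas 2.3.3, scipy 1.17.1, R 4.3.3 and edgeR 4.0.16 (TMM only).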

Additional observations from a re-analysis of the deposited data

Results flagged for a closer look

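Rps21, Rpl36a, Rps3a1, Rpl41, Rps29 and Rps10 had a stage difference of opposite sign in the 2 sorts in every pool, higher at E13.5 in bulk cells and lower at E13.5 in Lgr5-GFP+ cells. The log2 ratios in bulk and in Lgr5-GFP+ cells were 0.73 and -0.23 for Rps21, 0.42 and -0.75 for Rpl36a, and 0.49 and -0.42 for Rps3a1. They were 0.50 and -0.25 for Rpl41, 0.93 and -0.93 for Rps29, and 0.67 and -0.44 for Rps10. Rps21 also differed in the sort comparison, higher in Lgr5-GFP+ than in bulk cells at E10.5 (0.26) and lower at E13.5 (-0.70). At E10.5 the sorts stood apart mainly in pool 2. This 1 gene is 1.28% of the ribosomal protein genes, and 0.251% of all genes tested had the same pattern between sorts. The 6 genes with opposite stage signs are 7.69% of the ribosomal protein genes, and 0.862% of all genes tested had that pattern of signs. Without regard to pools, 73 of 78 lay above 0 between the bulk stages and 61 of 78 below 0 between the Lgr5-GFP+ stages. With 1 sample a group these differences were not tested. The mix of marker cells differed between the same groups.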

How the results depend on the processing

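Over the 9 share comparisons, 24 values under the alternatives were counted as moved, and all others as within the spread over pools of the reported one. The stages of Pdgfra cells had no pool with enough cells and so no such spread. Their values below cannot be judged by it. With TMM scaling the log2 ratio was 0.79 for the bulk stages, 1.10 for Klf1 and 0.84 for Afp against Pdgfra cells, and 0.54 for the stages of Pdgfra cells, a change of sign. With cells instead of reads weighted alike, the last was -0.18, with thinning to 100000 reads a cell -0.16, and with cells of more than 1 marker kept -0.092. With pools weighted alike the stages of Klf1 cells gave -0.020, and with cells of more than 1 marker kept 0.16. Without pools 3, 4 and 5 the bulk stages gave 0.74, the stages of Klf1 cells 0.19, of Pdgfra cells -0.28 and of Lgr5-GFP+ cells 0.08, against -0.15 with all pools. With any marker read enough, Klf1 against Pdgfra cells gave 0.58, Afp against Pdgfra cells 0.41, Klf1 against Afp cells 0.16, the stages of Klf1 cells 0.47 and of Pdgfra cells 0.58. Without 1 pool at a time the ranges were 0.59 to 0.67 (bulk stages), -0.26 to -0.06 (Lgr5-GFP+ stages), -0.09 to 0.04 (E10.5 sorts), -0.93 to -0.68 (E13.5 sorts), 0.93 to 0.99 (Klf1 against Pdgfra cells), 0.51 to 0.70 (Afp against Pdgfra cells), 0.29 to 0.42 (Klf1 against Afp cells), 0.0010 to 0.087 (stages of Klf1 cells) and -0.32 to -0.13 (stages of Pdgfra cells).

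The number of ribosomal protein genes past 2-fold changed with the settings. The shares of all genes tested are not given for these settings, except among E10.5 cells alone. Elsewhere the counts cannot show whether the ribosomal protein genes changed more than other genes did. For the bulk stages, 1 became 10 with TMM, 33 at 1.5-fold, 2 after thinning and 6 without pool 5. For Klf1 against Pdgfra cells, 35 became 2 with any marker read, 68 at 1.5-fold and 49 with TMM. For Afp against Pdgfra cells, 21 became 4, 44 and 34. For the stages of Klf1 cells, the lower gene was lost with cells or pools weighted alike, after thinning, with any marker read, with cells of more than 1 marker kept and without pool 2, and 4 were lower at 1.5-fold and 2 without a minimum of cells. There, 2 were higher with any marker read and 1 at 1.5-fold. Among E10.5 cells alone, a setting chosen after seeing the data, 35 became 39 and 21 became 23. The causes were not tested beyond what each setting changes. Calls without pools 3, 4 and 5 and values with pools weighted alike for the stages of Pdgfra cells could not be had, since too few pools held enough cells. No paired analysis was possible because the replicate numbers only name cells, and groups were compared within pools instead. The number of embryos per group is not given in the sources used here.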
